A study of Mus musculus with 6 samples.

Results

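The 10 genes described here encode receptors, junction proteins and identity factors of the endothelium, the cell layer that lines blood vessels. They were taken by name, and each was represented by its brightest probe set among those annotated with that symbol alone. All 10 were on the array, of 12393 genes with at least 1 such probe set. All 10 also remained among the 7970 genes left after the dimmest 40% of probe sets were removed. The genes were measured in lung metastases of MMTV-Myc tumours from FVB mice. In this model a mammary tumour virus promoter drives the Myc oncogene, so every sample carries that transgene. KO denotes 3 metastases from mice labelled Myc E2F2 KO, and Het denotes 3 from mice labelled Myc E2F3 Het. Here KO is set against Het and not against mice with intact E2F genes, whose metastases were not analysed.

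Endothelial cells are held together by Cdh5 (VE-cadherin), Cldn5 and Pecam1. They respond to VEGF through Kdr and Flt1, to angiopoietins through Tek with its partner Tie1, and to BMP ligands with the help of the co-receptor Eng. Sox17 is a transcription factor of arterial endothelium, and Emcn is a sialomucin of capillaries and veins. A lung metastasis can contain vessels of its own and vessels of the surrounding lung, which is rich in capillaries.

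The signals were MAS5 values on a linear scale, in arbitrary units, and every array had been scaled to a trimmed mean of 500.2. The Het array titles share 1 number and the KO titles carry 3 different ones, so the Het metastases may come from 1 mouse. In tests the Het arrays were therefore averaged into 1 sample. Het replicate 1, whose title ends in LM2, stood apart in RNA quality by the control ratios of actin and the transferrin receptor, and less so by Gapdh. Its 3' to 5' signal ratio was 2.38 for actin and 11.8 for the transferrin receptor, against 1.48 to 1.73 and 3.25 to 5.15 on the other arrays. For Gapdh its ratio was 0.93, against 0.75 to 0.90 on the other arrays. The mean log2 value of 9 genes listed for tumour epithelium stayed between -0.11 and 0.13 of its own 6-array mean. Single genes moved more, with a highest over lowest ratio of 1.79 for Epcam and 1.70 for Krt18. Whether tumour cells alone made these transcripts was not tested, so their mean is no measure of tumour content.

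Promoter sequences from RefSeq (build GRCm38.p6) were found for 7 of the 10 genes, namely Eng, Emcn, Tek, Tie1, Kdr, Flt1 and Cldn5. Each covers 250 bases before and 50 bases after the annotated start. A pair of receptor promoters, Kdr (chr5:75978406-75978705, strand -) and Flt1 (chr5:147725962-147726261, strand -), is shown because the array patterns of these VEGF receptors parted. Tie1 (chr4:118489800-118490099, strand -) and Cldn5 (chr16:18776597-18776896, strand +) are shown because their array patterns were the most alike of all pairs. Each sequence is written 5′ to 3′ on its gene's strand. Capitals mark GGAAG, a core of sites for ETS factors, or its reverse complement CTTCC.
Tie1: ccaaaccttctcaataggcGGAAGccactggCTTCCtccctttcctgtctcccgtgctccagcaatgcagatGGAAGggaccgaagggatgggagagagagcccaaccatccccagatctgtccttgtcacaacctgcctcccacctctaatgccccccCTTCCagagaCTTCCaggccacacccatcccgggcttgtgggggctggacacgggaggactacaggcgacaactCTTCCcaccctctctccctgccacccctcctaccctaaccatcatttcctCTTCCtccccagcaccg
Cldn5: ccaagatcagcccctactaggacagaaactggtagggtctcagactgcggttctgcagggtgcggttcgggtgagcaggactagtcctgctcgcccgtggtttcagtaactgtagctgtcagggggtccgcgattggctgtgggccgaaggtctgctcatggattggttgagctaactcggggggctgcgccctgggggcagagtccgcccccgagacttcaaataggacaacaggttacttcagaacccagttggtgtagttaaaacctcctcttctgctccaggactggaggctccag
Kdr: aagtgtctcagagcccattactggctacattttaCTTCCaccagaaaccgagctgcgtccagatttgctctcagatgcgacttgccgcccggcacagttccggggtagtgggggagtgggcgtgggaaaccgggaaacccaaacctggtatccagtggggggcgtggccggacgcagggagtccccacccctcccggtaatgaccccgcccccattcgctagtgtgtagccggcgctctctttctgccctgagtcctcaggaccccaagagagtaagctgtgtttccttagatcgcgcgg
Flt1: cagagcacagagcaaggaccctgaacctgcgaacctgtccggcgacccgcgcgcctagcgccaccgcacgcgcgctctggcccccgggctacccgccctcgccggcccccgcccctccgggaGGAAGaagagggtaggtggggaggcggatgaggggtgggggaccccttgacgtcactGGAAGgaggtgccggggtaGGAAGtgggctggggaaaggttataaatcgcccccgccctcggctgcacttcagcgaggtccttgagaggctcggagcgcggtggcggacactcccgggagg
The Tie1 window held 7 matches to GGAAG on both strands together, the Flt1 window 3, the Kdr window 1 and the Cldn5 window 0. Of 32851 promoter windows of this length, 71.4% held at least 1 match and 6.04% held 4 or more. The 7 genes included 5 with at least 1 match. A SOX core, ACAAT, was present in 2 of the 7 windows (Emcn and Tek), against 31% of all windows. A GATA motif, AGATAA or TGATAA, was also present in 2 of the 7 (Emcn and Tek), against 18.6% of all windows. The E2F words TTTCGCGC and TTTGGCGC were searched on both strands as well, with a match in 0 of the 7 windows and in 0.813% of all windows. These are counts of letters and not of bound sites.

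The junction and adhesion genes were brightest in KO replicate 1. Pecam1, an adhesion molecule at endothelial contacts that platelets and leukocytes also carry, had signals of 453, 417 and 203 in KO replicates 1 to 3, against 258, 233 and 168 in Het replicates 1 to 3. KO replicates 1 and 2 lay above every Het array, while KO replicate 3 lay among them. The difference of KO minus Het in mean log2(signal + 16) was 0.61 (SE 0.48). Cdh5, the cadherin of endothelial junctions, had signals of 347, 233 and 124 in KO metastases, against 195, 150.0 and 194 in Het metastases. Its KO arrays spanned the Het arrays on both sides, and the log2 difference was 0.26 (SE 0.55). Cldn5, the main claudin of endothelial tight junctions, had signals of 679.9, 542 and 249.7 in KO metastases, against 604, 292 and 250.5 in Het metastases. Each group held both bright and dim arrays, and the log2 difference was 0.34 (SE 0.56).

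The VEGF receptors did not follow one pattern. Kdr, the main signalling receptor for VEGF-A, had signals of 365, 273 and 163 in KO metastases, against 302, 192 and 194 in Het metastases. Its highest and lowest arrays were both KO, and the log2 difference was 0.17 (SE 0.45). Flt1, a high-affinity receptor that also exists as a soluble form, had signals of 350.2, 260.0 and 209 in KO metastases, against 245, 357 and 294 in Het metastases. For Flt1 the brightest array was Het replicate 2, and the log2 difference was -0.14 (SE 0.34). A dimmer Flt1 probe set was, like Kdr, highest in KO replicate 1 and lowest in KO replicate 3, with 282, 196 and 133 in KO metastases, against 245, 186 and 173 in Het metastases. Another was again highest in Het replicate 2, at 117, against 63.8 and 66.8 in Het replicates 1 and 3, and it lay at 100.5, 107 and 69.2 in KO metastases. The log2 differences of these probe sets were -0.03 (SE 0.43) and 0.16 (SE 0.395), so the 3 probe sets of Flt1 disagreed in sign. Which transcript each detects was not determined here.

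The angiopoietin receptor genes spread widely within each group. Tek, also called Tie2, had signals of 384, 256 and 97.5 in KO metastases, against 354, 152 and 203 in Het metastases. KO replicate 1 was 3.94 times KO replicate 3, and Het replicate 1 was 2.33 times Het replicate 2. The log2 difference between the groups was -0.05 (SE 0.699). Tie1, an orphan receptor that pairs with Tek, had signals of 158, 135 and 50.2 in KO metastases, against 114, 54.4 and 54.8 in Het metastases. KO replicates 1 and 2 and Het replicate 1 were high, and the other 3 arrays lay together near their lowest level. The log2 difference was 0.47 (SE 0.62).

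Eng and Emcn had smaller ranges within KO than Tek, Tie1 and Cldn5. Eng, a co-receptor for BMP9 and TGF-beta, had signals of 491, 447 and 327 in KO metastases, against 529, 320.0 and 393 in Het metastases. The highest array was Het replicate 1, and the log2 difference was 0.03 (SE 0.30). A second, dimmer Eng probe set gave 0.07 (SE 0.52), with signals of 210, 178 and 83.3 in KO metastases, against 181, 131 and 116 in Het metastases. Its highest array was KO replicate 1 and its lowest KO replicate 3. Its range within KO was 1.19 log2 units, against 0.56 for the brighter Eng probe set. Emcn had signals of 250.5, 223 and 142 in KO metastases, against 96.7, 159.9 and 185 in Het metastases. Here Het replicate 1, which was the highest Het array for 8 of the 10 genes, was the lowest of all 6. The log2 difference of Emcn was 0.45 (SE 0.38), and it was 0.20 without Het replicate 1. The part of the raised 3' to 5' ratios of that array in these values was not tested.

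Sox17 had the largest difference of the 10 genes. Its signals were 370.3, 328 and 119 in KO metastases, against 162, 99.3 and 81.4 in Het metastases. KO replicates 1 and 2 lay well above the Het arrays, and KO replicate 3 lay below Het replicate 1 and above the other Het arrays. The log2 difference was 1.05 (SE 0.64), a size of 1 or more that 1.47% of all genes reached in this direction. A dimmer probe set, which did not pass the filter on dim values, had signals of 91.1, 69.3 and 53.6 in KO metastases, against 76.0, 20.6 and 21.3 in Het metastases, a log2 difference of 0.78. In both probe sets Het replicate 1 was the highest Het array. With limma and each array as a sample, Sox17 was the 1 gene of the 10 with an unadjusted p under 0.05 (limma adjusted p = 0.455), against 10.3% of all probe sets under that rule.

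**Figure D1:**
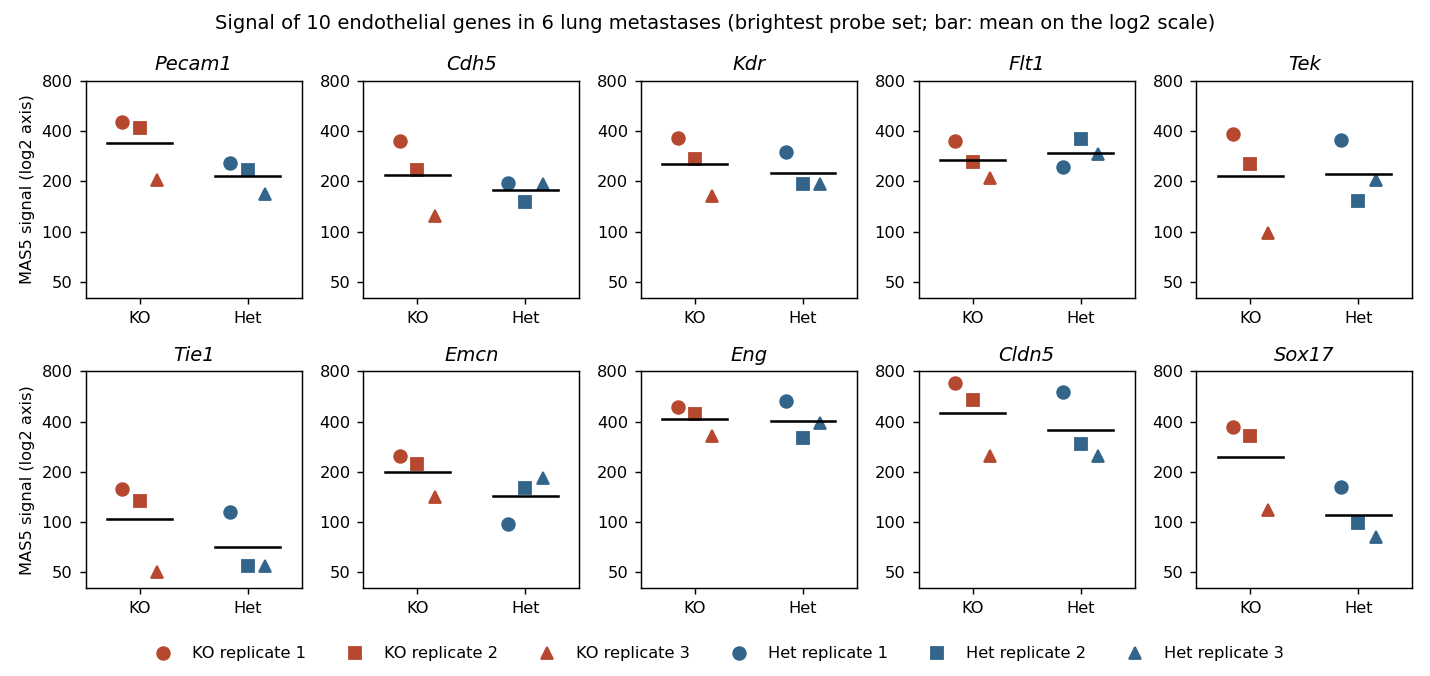
MAS5 signal (log2 axis) of the 10 endothelial genes, with KO arrays left and Het arrays right in each panel, 1 symbol per replicate and a bar at the mean on the log2 scale. The KO and Het arrays overlap for every gene, and KO replicate 1 is the highest and KO replicate 3 the lowest KO array for all 10.

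None of the 10 genes passed the test between KO and Het. With the Het arrays averaged, limma called 0 of 13575 probe sets at an adjusted p under 0.05 (0% called), and the adjusted p of each of the 10 genes was 0.9999. At an unadjusted p under 0.05 this fit held 0 of the 10 genes, against 2.25% of all probe sets. With each array as a sample, limma also called 0 probe sets (0%), and the adjusted p of the 10 genes ran from 0.455 for Sox17 to 0.979 for Tek. The KO and Het arrays overlapped for 10 of the 10 genes. Among all 7970 genes, 5.93% had every KO array above every Het array and 10.5% had every KO array below. The lowest two-sided p that exact permutation of 3 against 3 arrays allows is 0.1. The fit assumes that the lone Het sample varies like the KO samples. Separate animals are not stated in the labels, so each p reflects spread between these arrays alone, which may be technical.

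The difference was positive for 8 of the 10 genes, against 43.7% of all genes. The median difference was 0.30 for the 10 genes and -0.04 for all genes. This median rested on single arrays. It was -0.001 without KO replicate 1, 0.65 without KO replicate 3, 0.18 without Het replicate 2 and 0.35 without Het replicate 1. Without KO replicate 3, every remaining KO array lay above every Het array for Pecam1, Cdh5, Tie1, Emcn and Sox17, which makes 5 of the 10 genes, against 16.4% of all genes in that setting. Without Het replicate 1 this held for Sox17 alone, which makes 1 of the 10, a share near the 11.4% of all genes in that setting. KO replicate 3 was the lowest KO array for all 10 genes, so leaving it out can only raise their lowest KO value. The 16.4% covers genes that do not all share this order. It is therefore no measure of how unusual the 5 genes are.

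**Figure D2:**
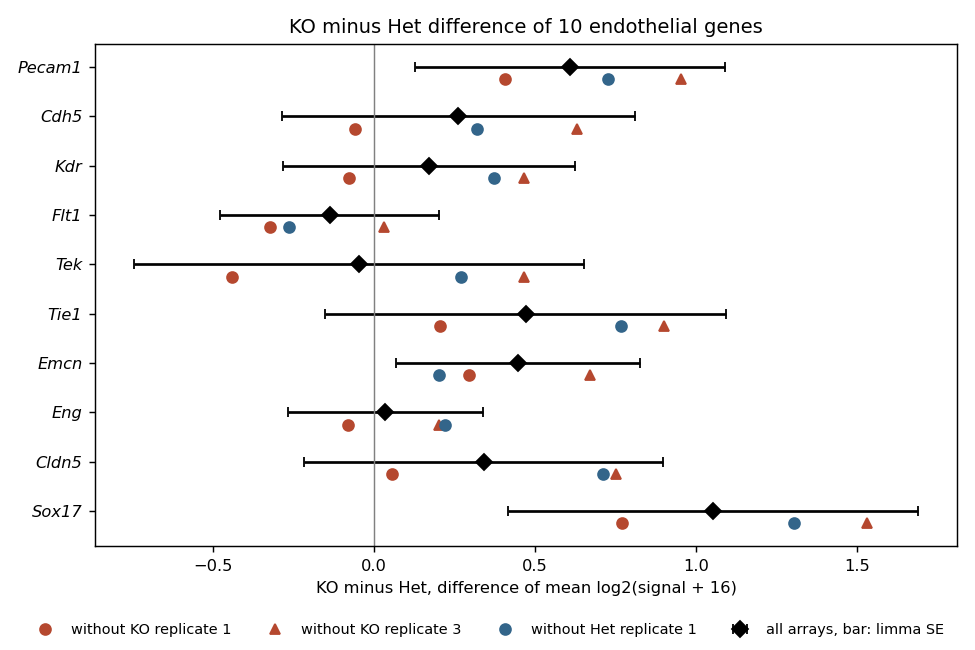
KO minus Het difference in mean log2(signal + 16) for each gene, with all arrays (diamonds, bars are the limma SE) and with 1 array left out (coloured symbols). Sox17 stays at 0.77 or above, while Cdh5, Kdr, Flt1, Tek and Eng lie on either side of 0 depending on the array left out.

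The main pattern of the 10 genes was a shared variation between metastases of the same genotype. By the brightest probe sets, KO replicate 1 was the highest and KO replicate 3 the lowest KO array for all 10 genes, with KO replicate 2 between them. Among all genes, 24.5% had this order. A dim Cdh5 probe set, which did not pass the filter, had 22.8, 33.9 and 17.2 in KO replicates 1 to 3. There, and in the dimmest Flt1 probe set, KO replicate 2 was the highest KO array. Across all 6 arrays, KO replicate 1 was the highest for 8 of the 10 genes (22.2% of all genes) and KO replicate 3 the lowest for 6 (23.0% of all genes). The ratio of KO replicate 1 to KO replicate 3 ran from 1.4995 for Eng to 3.94 for Tek, and was 2.52 in the dimmer Eng probe set. The median SD of log2(signal + 16) within KO was 0.65 for the 10 genes and 0.22 for all genes. Within Het it was 0.39 for the 10 genes and 0.17 for all genes. The median range within KO was 1.24 log2 units for the 10 genes and 0.43 for all genes. The median absolute difference between the groups was 0.30 for the 10 genes and 0.17 for all genes. A range over arrays and a difference of means are unlike measures. In RNA from a whole metastasis, fewer endothelial cells and less RNA per endothelial cell cannot be told apart.

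Relative to its mean over the 6 arrays, the average of the 10 genes lay at 0.65, 0.35 and -0.52 in KO replicates 1 to 3, against 0.12, -0.31 and -0.30 in Het replicates 1 to 3. Single genes departed from this profile by different amounts. Kdr lay closest to the mean of the other 9, with a root mean square distance of 0.12 log2 units over the 6 arrays. Emcn, Sox17 and Flt1 lay farthest, each at 0.45 or 0.46. Among pairs, Tie1 and Cldn5 were nearest to each other at 0.12, followed by Kdr and Eng at 0.18. Flt1 and Sox17 were the farthest apart, at 0.77. The 6 arrays are shared by all these distances, which are given as a description.

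By its brighter probe set, Sox17 was also higher in KO metastases when set against the other endothelial genes of the same array. Its log2 value minus the mean of the other 9 genes, centred on the 6 arrays, was 0.49, 0.64 and 0.10 in KO replicates 1 to 3, against -0.17, -0.39 and -0.66 in Het replicates 1 to 3. All KO arrays lay above all Het arrays, with a mean of 0.41 ± 0.28 for KO and -0.41 ± 0.25 for Het (SD over 3 arrays each), a difference of 0.81. After the mean of the 10 genes was subtracted from every gene, 1.19% of all genes had every KO array above every Het array and 4.22% had every KO array below. Before that step the shares were 5.93% and 10.5%. In a gene without the shared profile, the subtraction lowers KO replicates 1 and 2 and raises KO replicate 3. The 1.19% is therefore no measure of how rare Sox17 is among endothelial genes. Mcam and Myct1, 2 other vascular endothelial genes, also had every KO array above every Het array on this scale. Set against 21 other vascular endothelial genes instead, the Sox17 difference was 0.64, and the groups again did not overlap. No share of all genes was computed for that scale. The dimmer Sox17 probe set gave 0.54 against the other 9 genes, with overlapping groups. The comparison was chosen after the values were seen and was not tested.

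The other 9 genes overlapped between the groups on this relative scale. Pecam1 was higher in KO by 0.32 and Tie1 by 0.17. Flt1 was at -0.51, Tek at -0.41, Eng at -0.32 and Kdr at -0.17. Cldn5 and Cdh5 were at 0.02 and -0.06, but Cldn5 ran from -0.38 to 0.50 and Cdh5 from -0.15 to 0.31 over the Het arrays. Emcn was at 0.14, but its Het arrays ran from -0.93 in Het replicate 1 to 0.46 in Het replicate 3. Against the 21 other vascular genes, Kdr was at -0.24 with every KO array below every Het array. The gap was narrow, with KO replicate 3 at 0.0075 and Het replicate 3 at 0.0553. The share of all genes that part in this way on that scale was not computed.

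**Figure D3:**
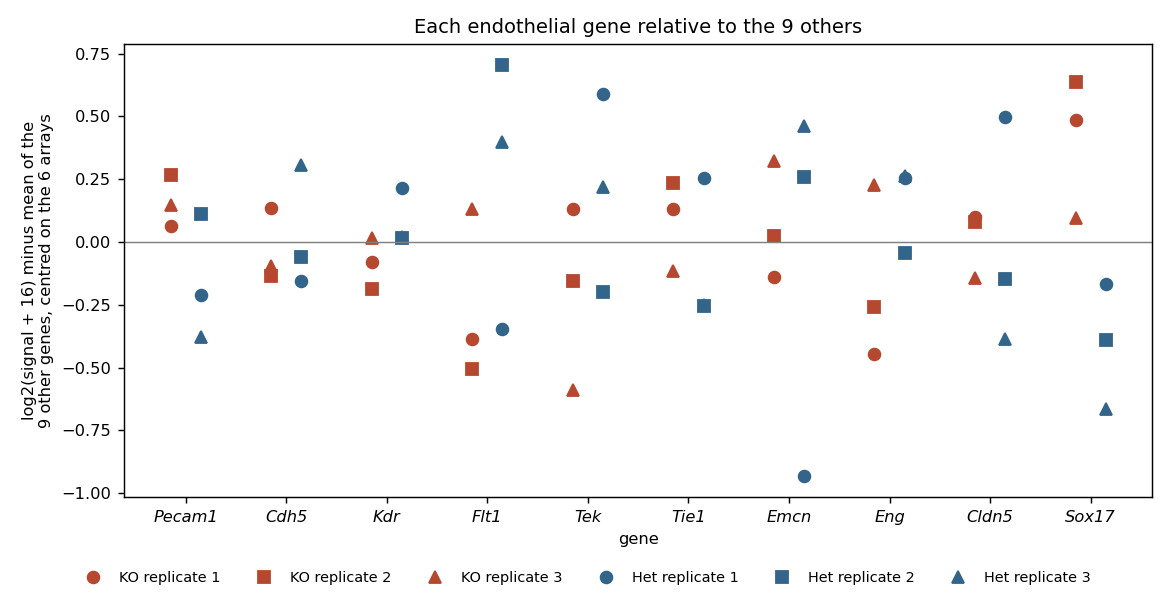
Log2(signal + 16) of each gene minus the mean of the 9 other genes in the same array, centred on the 6 arrays, with KO left and Het right for each gene. Sox17 is the 1 gene whose KO arrays, at 0.10 to 0.64, all lie above its Het arrays, at -0.66 to -0.17.

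Other vascular endothelial genes followed the same array profile. Of 26 such genes listed, 23 were on the array and 21 passed the filter on dim values. All 21 had a positive KO minus Het difference, with a median of 0.36, and none passed the test (limma adjusted p, 0 of 21; 0 of 21 at an unadjusted p under 0.05, and 1 of 21 with each array as a sample). Their average lay at 0.73, 0.40 and -0.51 in KO replicates 1 to 3, against 0.20, -0.48 and -0.34 in Het replicates 1 to 3. KO replicate 1 was the highest array for 18 of the 21. The brightest of them were Podxl, a sialomucin that podocytes also make, at 0.42 (SE 0.32), the transcription factor Ets1 at 0.62 (SE 0.47), the phosphatase Ptprb, which acts on Tek, at 0.47 (SE 0.68), and Cd93 at 0.15 (SE 0.49). Erg, a defining endothelial factor, was listed at 1.77 to 3.55 on all 6 arrays and was left out as dim. Relative to the mean of the 10 genes, Mcam and Myct1 were the other vascular genes with every KO array above every Het array, at 0.78 and 0.40. Mcam, an adhesion molecule shared with pericytes, had signals of 397, 384 and 177 in KO metastases, against 179, 84.4 and 149 in Het metastases.

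Among 21 ligands, co-receptors and pathway partners, 16 passed the filter, of which 14 had a positive and 2 a negative difference, with a median of 0.23 and 0 past the test (limma; 0 of 16 at an unadjusted p under 0.05). Vegfa, the ligand of Kdr and Flt1, had signals of 879.9, 669 and 813 in KO metastases, against 788, 1113 and 689 in Het metastases. Its highest array was Het replicate 2, as for Flt1, and its log2 difference was -0.11 (SE 0.26). Nrp1, a VEGF co-receptor found on many cell types, had 1513, 901 and 329 in KO metastases, against 700.1, 504 and 553 in Het metastases, and shared the KO order of the receptors (log2 difference 0.40, SE 0.80). Tgfbr2 and Notch1 were at -0.11 (SE 0.42) and 0.02 (SE 0.22). The ligand Angpt1 did not pass the filter. Its signals were 25.3, 42.5 and 25.4 in KO metastases, against 2.42, 6.31 and 5.29 in Het metastases, a log2 difference of 1.17. Of the other partners left out as dim, Jag1 was at 0.95, Vegfc at 0.85, Gdf2 at 0.09 and Dll4 at -0.10. Whether these dim genes lay above background is not known. Of 8 adhesion and activation genes, 4 passed, all 4 with a positive difference and a median of 0.14, with F11r at 0.01 (SE 0.21), Icam1 at 0.26 (SE 0.76), Cd200 at 0.41 (SE 0.32) and Vcam1 at 0.02 (SE 0.68).

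Markers of lymphatic vessels gave 3 genes past the filter, 1 higher and 2 lower in KO. Lyve1 was at -0.37 (SE 0.30), Flt4 at -0.003 (SE 0.46) and Pdpn, which alveolar type 1 cells also make, at 0.39 (SE 0.47). Prox1, the defining lymphatic factor, was at 0.27 to 17.6 and did not pass. Pericyte and smooth muscle genes gave 6 of 10 past the filter with a median of 0.02. Their average was 0.49, 0.25 and -0.57 in KO replicates 1 to 3, against -0.09, 0.09 and -0.17 in Het replicates 1 to 3. Among the brightest, Acta2 was at 0.59 (SE 0.47), Rgs5 at -0.07 (SE 0.74), Pdgfrb at 0.03 (SE 0.63) and Notch3 at -0.003 (SE 0.30). KO replicate 1 was the highest array for 4 of the 6, and KO replicate 3 the lowest for 4. Het replicate 1 was the highest Het array for 4 of the 6, though not for the list average.

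Alveolar epithelial genes, which mark lung tissue, moved with the endothelial genes. Of the 12 listed, 11 passed the filter and 10 of the 11 were highest in KO replicate 1. Their average was 1.36, 0.36 and -1.003 in KO replicates 1 to 3, against 0.25, -0.55 and -0.41 in Het replicates 1 to 3, so the 6 arrays stood in the same order as for the 10 endothelial genes, with a wider spread. The summed signal of the 11 genes ran from 14228 to 66735 in KO and from 21577 to 33247 in Het metastases. The summed signal of the 10 endothelial genes ran from 1684 to 3848 in KO and from 2010 to 2860 in Het metastases. The part of lung tissue in the endothelial differences was not tested. Aqp5 was at 1.20 (SE 0.89), Sftpd at 0.93 (SE 0.93), Sftpa1 at 0.42 (SE 1.39) and Sftpc at -0.04 (SE 0.67). Airway genes were lower in KO for 3 of 3 past the filter, with a median of -0.65. Their average was 0.75, -1.22 and -0.31 in KO replicates 1 to 3, against 0.43, 0.24 and 0.10 in Het replicates 1 to 3. It was highest in KO replicate 1, as for the alveolar genes, but lowest in KO replicate 2.

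**Figure D4:**
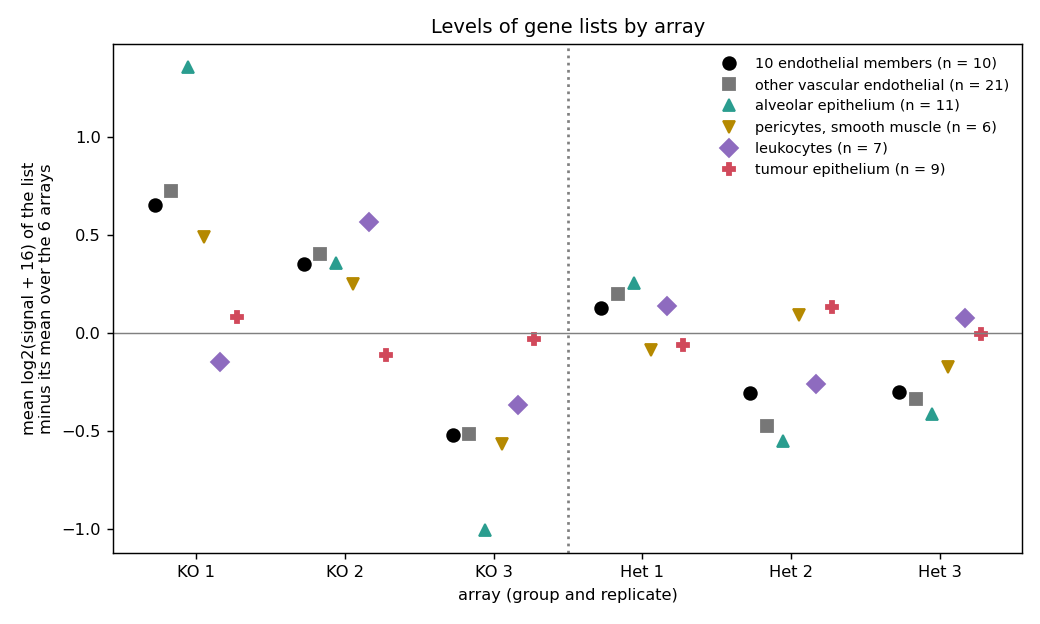
Mean log2(signal + 16) of each gene list in each array, minus the mean of that list over the 6 arrays, with KO arrays left of Het arrays. The 10 endothelial genes are highest in KO replicate 1, at 0.65, and lowest in KO replicate 3, at -0.52, as is the alveolar list, while the mean of the tumour epithelial list stays between -0.11 and 0.13.

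Leukocyte genes shared the profile only in part. All 7 passed the filter, with a median of -0.0002. Their average was -0.15, 0.56 and -0.37 in KO replicates 1 to 3, against 0.14, -0.26 and 0.07 in Het replicates 1 to 3. As for the endothelial genes, KO replicate 3 was the lowest array and Het replicate 1 the highest Het array. The highest array was KO replicate 2 instead of KO replicate 1. Tyrobp was at -0.38 (SE 0.49), Laptm5 at -0.02 (SE 0.45), Ptprc at 0.23 (SE 0.41) and Cd52 at 0.53 (SE 0.596). Of 7 platelet genes 3 passed, and all 3 had every KO array above every Het array, against 5.93% of all genes. Pf4 was at 0.91 (SE 0.46), Ppbp at 1.43 (SE 0.29) and Itga2b at 0.48 (SE 0.34). Among the platelet genes left out as dim, the groups were also apart for Gp9 but overlapped for Gp1bb, Gp5 and Itgb3. Platelets carry Pecam1 as well, and their part in its difference was not tested. Among fibroblast genes, 6 of 7 passed, 5 had a positive difference, and the median was 0.61. Every KO array lay above every Het array for 4 of the 6, again against 5.93% of all genes. Their average, at 0.75, 0.48 and -0.39 in KO replicates 1 to 3, against -0.10, -0.30 and -0.44 in Het replicates 1 to 3, moved with that of the endothelial genes within KO, and the part of fibroblasts in the endothelial differences was not tested. The brightest were Col3a1 at 0.57 (SE 0.30), Col1a2 at 0.59 (SE 0.24), Col1a1 at 0.95 (SE 0.27) and Pdgfra at -0.30 (SE 0.54). None of these genes passed the limma test at an adjusted p under 0.05. With each array as a sample, limma gave an unadjusted p under 0.05 for 2 of the 3 platelet and 4 of the 6 fibroblast genes. The share of all probe sets was 10.3% in that fit, which counts the Het arrays as independent. Tumour epithelial genes had a median of 0.01 over 9 genes, with Krt8 at 0.01 (SE 0.17), Krt18 at 0.21 (SE 0.30), Epcam at 0.11 (SE 0.18) and Myc at -0.14 (SE 0.17).

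The genes whose array profile lay closest to the mean of the 10 were drawn from the 1716 other genes with a range of at least 1 log2 unit. Likeness was the root mean square distance between centred log2 values over the 6 arrays. Emp2, a membrane protein of alveolar type 1 cells, was nearest at 0.04, with signals of 1768, 1394 and 767 in KO metastases, against 1303, 939.9 and 919.9 in Het metastases. It was followed by Mrc1, the macrophage mannose receptor, at 0.06. Ablim1, Bgn, Paqr7, Mocos, Sh3bp1 and Gstm2 lay at 0.08, and Fyn and Myo10 at 0.09. Of these 10 genes, 0 were on the list of other vascular endothelial genes. The 6 arrays are common to all profiles, and a likeness over so few arrays says nothing of shared function or control.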

How the data were processed

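RNA of 6 lung metastases was measured on Affymetrix mouse arrays. The authors deposited MAS5 signal intensity on a linear scale. Per the submitters' processing notes the tools were MAS5 and Affymetrix Expression Console, of versions not given in the sources used here. Detection calls were not used here. The number of arrays limits the precision.

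Of 22690 probe sets, 64 controls were removed, and 20380 had 1 gene symbol in the platform annotation. Of these, 20351 matched the GRCm38.p6 gene table by Entrez ID. Signals were taken as log2(signal + 16), which understates changes of dim genes. The dimmest 40% by mean signal were left out, which kept 13575 probe sets. Probe sets were tested with limma 3.58.1 (R 4.3.3, trend in eBayes, Benjamini-Hochberg, threshold 0.05). The fit was also run on simulated data, with independent arrays and changes larger than those of the 10 genes. That run says nothing of the power to find differences of the size seen here. SE is that of the fit, and SD is over arrays. Replicates were numbered in accession order. Lists other than the 10 genes are described by counts, medians and their 4 brightest genes. Some genes outside this rule are named as well, among them dim ones. The members and lists were chosen with earlier results of these data known. Alternatives covered pseudocounts of 1 and 64, quantile normalization, the filter, the probe sets, the unit of replication and each array left out.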

Additional observations from a re-analysis of the deposited data

How the results depend on the processing

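No probe set passed in any of the 13 alternatives in which limma was refitted on probe sets: 0 were called each time, with the lowest adjusted p at 0.0537 with each array as a sample, 0.258 with title numbers as a random block and 0.406 without KO replicate 3. The number at an unadjusted p under 0.05 was 305, against 1395 with each array as a sample, 668 with the title number as a block, 959 without KO replicate 3 and 157 without KO replicate 2. The median difference of the 10 genes ran from -0.001 to 0.65 over the arrays left out in turn, and from 0.26 to 0.31 over the pseudocounts, quantile normalization and averaged probe sets. The number of the 10 genes whose groups did not overlap was 0, and ran from 0 to 5 over the arrays left out, with 5 without KO replicate 3 (16.4% of all genes) and 1 without Het replicate 1 (11.4% of all genes). The 5 genes follow from the low level of KO replicate 3, the lowest KO array for all 10 genes. With 60% of probe sets left out, 4 of the 10 genes were kept.

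Of the differences of the 10 genes, 94 were altered by an alternative, of which 86 kept their sign and 8 changed it, and none was called. The unit of replication cannot alter a difference, nor can averaging where a gene has 1 probe set. Without KO replicate 1, Cdh5 was at -0.058, Kdr at -0.077 and Eng at -0.080. Eng was at -0.016 without KO replicate 2 and at -0.129 without Het replicate 2. Without KO replicate 3, Flt1 was at 0.029 and Tek at 0.467, and Tek was at 0.270 without Het replicate 1. Over the arrays left out, the range was -0.058 to 0.631 for Cdh5, -0.077 to 0.466 for Kdr, -0.323 to 0.029 for Flt1, -0.442 to 0.467 for Tek and -0.129 to 0.221 for Eng. Pecam1, Tie1, Emcn, Cldn5 and Sox17 kept their sign, with ranges of 0.406 to 0.954, 0.205 to 0.901, 0.201 to 0.672, 0.056 to 0.751 and 0.772 to 1.53 in that order. The difference of Sox17 relative to the other 9 genes was added after the data were seen. It ran from 0.69 to 0.97 over the arrays left out and was 0.645 with a pseudocount of 64, and its groups did not overlap in any of the 4 alternatives that keep all arrays. Leaving out an array cannot make groups overlap that are apart. No paired analysis was possible because the KO titles carry no replicate numbers shared with the Het titles. Dim genes such as Erg have no detection call here, so whether they lay above background is not known.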
